A study of Danio rerio with 12 samples.

Results

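Ect2 and 8 genes whose products act beside it in cytokinesis were followed by RNA-seq in the ventricular apex of adult zebrafish hearts, uninjured and at 7 days post-amputation (dpa) of the apex. The genes were taken by name for their known roles (ect2, racgap1, kif23, kif20a, prc1a, prc1b, anln, aurkb, and incenp). No measured value entered the rule, but the names were listed with earlier results of these data known. All 9 were found among the 38049 genes of the count files, and all 9 passed the filter on low counts, which left 19014 genes for testing. The study itself picked ect2 as a gene to follow from sets drawn with these same libraries, intersected with putative Nkx2.5 targets from mouse cells. The changes of ect2 here are thus not independent evidence for that choice. As further grounds, the study cited binding of the factor in human cardiomyocytes. By staining of RNA in heart sections, it reported less ect2 in injured mutant than in injured wild-type hearts.

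Cytokinesis is the last step of cell division, in which a ring of actin and myosin pinches the cell between the separated chromosomes. The ring forms where Ect2, a guanine nucleotide exchange factor, switches on the GTPase RhoA at the cell equator. Ect2 is brought there by centralspindlin, a complex of Racgap1 and the kinesin Kif23, which sits on the bundled microtubules of the central spindle. Zebrafish cardiomyocytes divide after injury, whereas many adult mammalian cardiomyocytes replicate DNA without completing cytokinesis.

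There were 6 groups of 2 libraries each. WT0 and WT7 were uninjured and 7 dpa wild-type fish without a transgene. TG0 and TG7 were wild-type fish that carried Tg(hsp70l:nkx2.5-EGFP), in which a heat shock promoter drives Nkx2.5 fused to EGFP. MT0 and MT7 were nkx2.5-/- fish (allele vu179) that carried this transgene, which rescues the embryo. Fish of all 6 groups, the non-transgenic controls included, had been heat shocked at 37 °C as embryos of 21 somites. They were 3 to 18 months old at resection, and each library was made from a pool of 6 apices. The transgene was thus shared by TG and MT fish and absent from WT fish, and MT fish were adults that had received Nkx2.5 as embryos. A heat shock promoter can itself respond to injury, and transgene RNA was not measured apart from nkx2.5 here. By qPCR in TG fish, the study reported that the transgene rose soon after resection. It reported a return to uninjured levels well before 7 dpa.

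Total counts ranged from 14234818 to 24544150 per library, and the 9 genes together took 0.0023% to 0.0203% of them. Levels are given as CPM, a gene's count relative to the library's effective size by the TMM method, in the order replicate 1, replicate 2, and 3 counts corresponded to 0.121 to 0.224 CPM. The summed level of 6 cardiomyocyte markers (such as myl7 and vmhc) lay between 23970 and 80681 CPM in all libraries, so that cardiac muscle RNA was abundant in each. The mutated gene nkx2.5 was itself read at 165.7 to 271.5 CPM in WT and TG libraries and at 205.2 to 450.1 CPM in MT libraries. Its counts cannot separate mutant from transgene RNA and so did not check the genotype labels. The study describes the libraries of a group as biological replicates, and they were kept as separate replicates. A count test within each group found differences at unadjusted p below 0.05 for 37.2% to 60.3% of 9074 well-expressed genes. It compares the libraries with counting error alone, so it cannot tell biological from technical replicates. Each fold change was tested in edgeR with its quasi-likelihood F-test, and p-values were adjusted by Benjamini-Hochberg (FDR) over the 19014 genes. A gene was called where FDR was below 0.05 and the log2 fold change exceeded 0.5 in size. Since these are bulk samples, fewer dividing cells and less RNA per dividing cell cannot be told apart.

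Ect2, the activator of RhoA, was measured at 0.542 and 1.19 CPM in WT0, 2.87 and 1.71 in TG0, 2.77 and 3.72 in MT0, 5.44 and 5.83 in WT7, 6.15 and 4.99 in TG7, and 9.94 and 3.94 in MT7. For ect2, both WT0 libraries were below all others, and MT7 replicate 1 was the highest of the 12. The WT0 values rest on 8 and 16 counts, for which the 95% Poisson intervals were 0.234 to 1.07 CPM and 0.682 to 1.94 CPM (counting error only). The group means were 0.868 ± 0.460 CPM in WT0, 2.29 ± 0.818 in TG0, 3.25 ± 0.675 in MT0, 5.63 ± 0.279 in WT7, 5.57 ± 0.821 in TG7, and 6.94 ± 4.24 in MT7 (SD, n = 2). The 3 injured groups thus headed the order of levels, and none of the 3 comparisons among them was called. Among the uninjured groups, MT0 was called above WT0, whereas TG0 was called neither above WT0 nor below MT0.

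**Figure D1:**
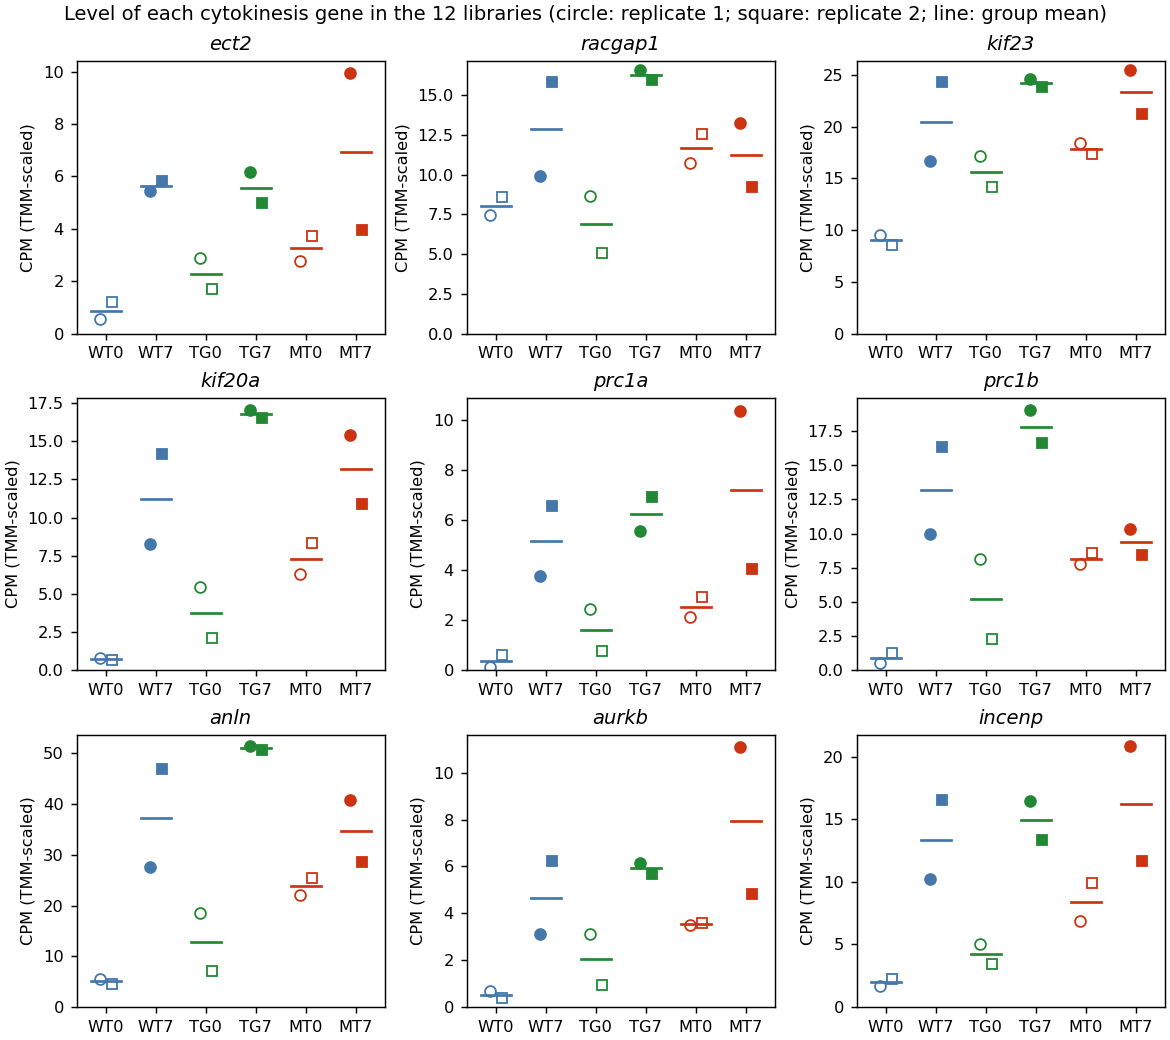
Level of each of the 9 cytokinesis genes in every library, in TMM-scaled CPM on a linear axis from 0. Circles are replicate 1, squares are replicate 2, open symbols are uninjured (WT0, TG0, MT0), filled symbols are 7 dpa (WT7, TG7, MT7), and lines are group means (n = 2). WT0 is the lowest group in every panel but that of racgap1, and MT7 replicate 1 stands above MT7 replicate 2 in all 9 panels.

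The partners that recruit Ect2 showed smaller changes. Racgap1, the GTPase-activating subunit of centralspindlin, was measured at 7.46 and 8.57 CPM in WT0, 8.66 and 5.08 in TG0, 10.7 and 12.6 in MT0, 9.90 and 15.9 in WT7, 16.6 and 15.9 in TG7, and 13.2 and 9.21 in MT7. Its lowest library was TG0 replicate 2, and the MT0 and MT7 libraries overlapped. Kif23, the kinesin subunit, was measured at 9.49 and 8.57 CPM in WT0, 17.2 and 14.1 in TG0, 18.4 and 17.3 in MT0, 16.6 and 24.3 in WT7, 24.7 and 23.9 in TG7, and 25.5 and 21.3 in MT7. Every other library exceeded both WT0 libraries, and the highest group mean was 2.69 times the lowest for kif23 and 2.37 times for racgap1, against 7.997 times for ect2.

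Prc1 cross-links the antiparallel microtubules of the central spindle, and zebrafish have the paralogs prc1a and prc1b. Prc1a was measured at 0.136 and 0.596 CPM in WT0, 2.44 and 0.754 in TG0, 2.15 and 2.92 in MT0, 3.79 and 6.58 in WT7, 5.58 and 6.95 in TG7, and 10.4 and 4.06 in MT7. Its WT0 values were 2 and 8 counts, and the 95% Poisson interval of the lower was 0.0164 to 0.490 CPM. Prc1b was measured at 0.542 and 1.27 CPM in WT0, 8.11 and 2.26 in TG0, 7.74 and 8.57 in MT0, 9.999 and 16.3 in WT7, 19.0 and 16.6 in TG7, and 10.3 and 8.40 in MT7. Prc1b overlapped between MT7 and MT0, while prc1a reached its highest value of all libraries in MT7 replicate 1.

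The balance between the paralogs therefore differed in that library. There were 2.07 to 4 counts of prc1b for each count of prc1a in the other 11 libraries, and 0.992 in MT7 replicate 1 (249 and 251 counts). The MT7 replicate 2 ratio, 2.07, was the lowest of the others, and the WT7 libraries gave 2.64 and 2.48. Reads that match both paralogs may have been dropped or split in the counting, so that the ratio is less certain than the sum. The summed level of the pair was 20.7 and 12.5 CPM in MT7, 13.8 and 22.9 CPM in WT7, and 24.6 and 23.6 CPM in TG7.

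Kif20a is the kinesin that carries the chromosomal passenger complex onto the central spindle. It was measured at 0.814 and 0.671 CPM in WT0, 5.43 and 2.11 in TG0, 6.28 and 8.35 in MT0, 8.30 and 14.1 in WT7, 17.0 and 16.5 in TG7, and 15.4 and 10.9 in MT7. Its highest group mean, that of TG7, was 22.6 times that of WT0, the widest span among the 9 genes. No library of an injured group overlapped its uninjured counterpart.

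Aurkb, the kinase of the chromosomal passenger complex, was measured at 0.678 and 0.373 CPM in WT0, 3.11 and 0.955 in TG0, 3.505 and 3.59 in MT0, 3.11 and 6.23 in WT7, 6.15 and 5.68 in TG7, and 11.1 and 4.83 in MT7. Incenp, the scaffold of that complex, was measured at 1.70 and 2.24 CPM in WT0, 5.06 and 3.42 in TG0, 6.84 and 9.92 in MT0, 10.2 and 16.6 in WT7, 16.5 and 13.4 in TG7, and 20.8 and 11.7 in MT7. For both genes MT7 replicate 1 was the highest library and MT7 the highest group mean, with 7.96 ± 4.43 CPM for aurkb and 16.2 ± 6.48 CPM for incenp (SD, n = 2). Anln encodes anillin, which ties RhoA to actin, myosin, and septins in the ring. It was measured at 5.56 and 4.55 CPM in WT0, 18.6 and 7.14 in TG0, 22.1 and 25.5 in MT0, 27.6 and 46.8 in WT7, 51.4 and 50.7 in TG7, and 40.8 and 28.6 in MT7. TG7 was highest for anln, with both libraries above all 10 others.

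The first question was which of these genes rose upon amputation in each genotype. In WT fish, 8 of 9 genes were called higher at 7 dpa, against 13.2% of all tested genes. Kif20a rose by 3.90 ± 0.50 on the log2 scale (SE), prc1b by 3.87 ± 0.60, prc1a by 3.83 ± 0.78, and aurkb by 3.13 ± 0.67. Anln rose by 2.88 ± 0.42, incenp by 2.77 ± 0.39, ect2 by 2.70 ± 0.53 (6.51-fold), and kif23 by 1.18 ± 0.20. Their FDR ranged from 0.00088 for kif20a to 0.0095 for aurkb, with 0.0062 for ect2 (edgeR). Racgap1 was the exception, with a log2 fold change of 0.69 ± 0.30 and an FDR of 0.12, although its WT7 libraries were both above those of WT0. The WT7 and WT0 libraries did not overlap for any of the 9 genes, as for 34.2% of all genes in this direction. Without WT0 replicate 1 the count was 5, and ect2 then had a log2 fold change of 2.24 and an FDR of 0.058.

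In TG fish, 5 of 9 genes were called higher at 7 dpa, against 6.69% of all tested genes. Kif20a rose by 2.17 ± 0.41 on the log2 scale, anln by 1.996 ± 0.39, incenp by 1.82 ± 0.36, prc1b by 1.79 ± 0.49, and racgap1 by 1.25 ± 0.30, with FDR from 0.011 to 0.045 (edgeR). The values for prc1a, aurkb, ect2, and kif23 were 1.99 ± 0.63, 1.56 ± 0.57, 1.29 ± 0.47, and 0.63 ± 0.19, with FDR from 0.063 to 0.11. All 9 genes had both TG7 libraries above both TG0 libraries, as had 32.4% of all genes. The count was 0 without TG0 replicate 2, without TG7 replicate 1, or without TG7 replicate 2, and it was 8 where only TG7 and TG0 were fitted.

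In MT fish, none of the 9 genes was called in edgeR, against 5.56% of all tested genes called higher. At unadjusted p below 0.05, 3 genes were higher in edgeR, against 14.4% of all genes, while DESeq2 and limma-voom called 0 and had 5 and 3 genes below 0.05. The log2 fold change was 1.505 ± 0.60 for prc1a, 1.16 ± 0.54 for aurkb, 1.09 ± 0.45 for ect2, 0.95 ± 0.34 for incenp, and 0.84 ± 0.38 for kif20a, with FDR from 0.094 to 0.18 (edgeR). For anln it was 0.54 ± 0.37, for kif23 0.39 ± 0.19, for prc1b 0.20 ± 0.47, and for racgap1 -0.06 ± 0.29. The 95% interval for ect2 ran from 0.08 to 2.10, and that for prc1b from -0.85 to 1.24. Both MT7 libraries exceeded both MT0 libraries for 7 of 9 genes, against 29.4% of all genes, and the exceptions were racgap1 and prc1b. Without MT7 replicate 2 the count was 2, with ect2 at 1.60 (FDR 0.037) and incenp at 1.31 (FDR 0.042).

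**Figure D2:**
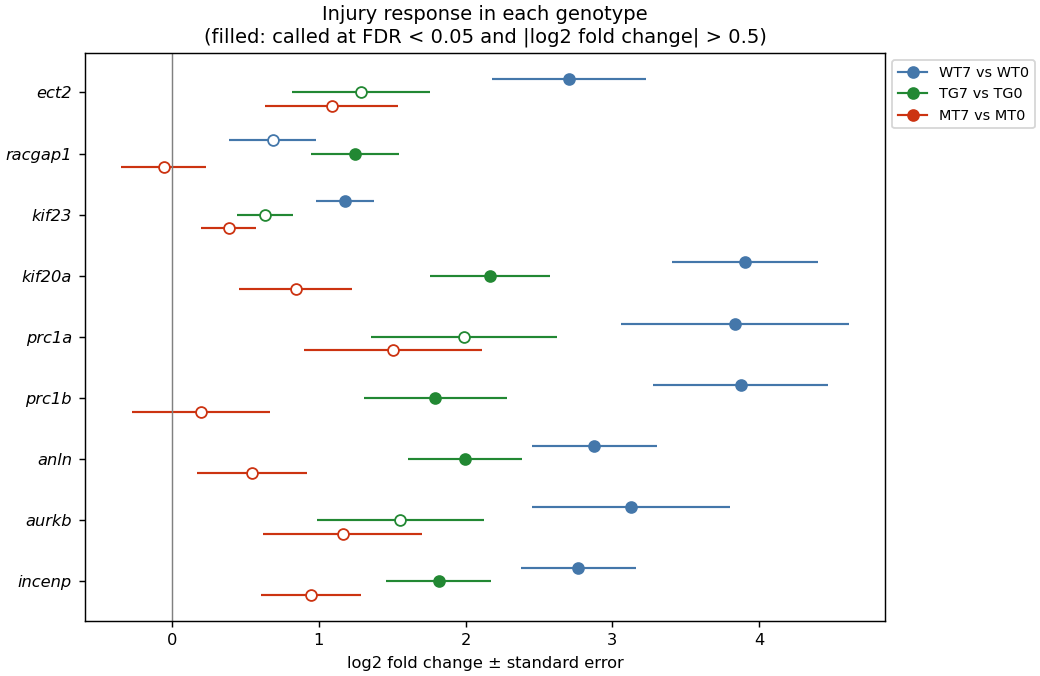
Log2 fold change at 7 dpa against the uninjured heart for each gene in WT, TG, and MT fish, with bars of ± 1 SE from the edgeR fit, and filled symbols for called genes. WT values are the rightmost for every gene but racgap1, and MT values are the leftmost for all 9 genes.

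Whether the injury responses differed was tested directly, as an interaction within the same fit. The MT response minus the WT response was -3.06 ± 0.63 on the log2 scale for kif20a (FDR 0.043, edgeR) and -3.68 ± 0.76 for prc1b (FDR 0.043), so that both rose less in MT fish. These were 2 of 9 genes, against 1.51% of all tested genes called in this direction. All 9 estimates were below 0, and 8 had an unadjusted p below 0.05, against 11.5% of all genes. For anln the value was -2.33 ± 0.56 with an FDR of 0.069, and for ect2 it was -1.61 ± 0.69 with an FDR of 0.24. The count was 0 without any 1 of the WT7, TG7, MT0, and MT7 libraries or without WT0 replicate 1, and 1 without WT0 replicate 2. It was 0 in limma-voom and 4 in DESeq2.

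Set against TG fish, the MT response had no called gene in edgeR (0 of 9, with 4 at unadjusted p below 0.05, and 0 called by DESeq2 and limma-voom with 4 each below 0.05). Here 1.06% of all tested genes were called lower and 9.64% were lower at unadjusted p below 0.05. The estimate for ect2 was -0.20 ± 0.64, with a 95% interval from -1.63 to 1.24, and that for prc1b was -1.60 ± 0.67. The TG response minus the WT response also gave 0 of 9 calls in edgeR, DESeq2, and limma-voom (with 2, 2, and 0 genes at unadjusted p below 0.05), where 2.01% of all genes were called lower and 1.64% higher, and 11% were lower at unadjusted p below 0.05. The value for ect2 was -1.42 ± 0.70, and racgap1, at 0.56 ± 0.42, was the only gene above 0.

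Uninjured hearts of the 3 genotypes were then compared. In MT0, 8 of 9 genes were called above WT0, against 13.6% of all tested genes. Kif20a was higher by 3.29 ± 0.50 on the log2 scale, prc1b by 3.18 ± 0.60, prc1a by 2.80 ± 0.79, aurkb by 2.73 ± 0.68, anln by 2.23 ± 0.42, incenp by 2.10 ± 0.39, ect2 by 1.91 ± 0.53 (3.77-fold), and kif23 by 0.98 ± 0.20. The FDR ranged from 0.0016 for kif20a to 0.027 for prc1a, with 0.025 for ect2 (edgeR). Racgap1 was at 0.54 ± 0.30 with an FDR of 0.20. No MT0 library overlapped WT0 for any of the 9 genes, as for 31.5% of all genes in this direction. The count was 5 without WT0 replicate 1, without MT0 replicate 2, in limma-voom, or where only these 4 libraries were fitted, and ect2 was then at 1.45 (FDR 0.16) without WT0 replicate 1 and at 1.69 (FDR 0.11) without MT0 replicate 2.

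In TG0, 4 of 9 genes were called above WT0, against 11.1% of all tested genes. These were prc1b at 2.51 ± 0.61, kif20a at 2.32 ± 0.52, anln at 1.34 ± 0.42, and kif23 at 0.79 ± 0.20, with FDR from 0.012 to 0.045 (edgeR). Ect2 was at 1.40 ± 0.54 with an FDR of 0.085, and racgap1 at -0.23 ± 0.31. TG0 replicate 1 was the higher for each gene, and the count was 0 without it. It was also 0 without WT0 replicate 1, in limma-voom, and where only TG0 and WT0 were fitted, 2 without WT0 replicate 2, and 7 in DESeq2.

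Between MT0 and TG0, which share the transgene and differ in the nkx2.5 mutation, no gene was called in edgeR (0 of 9, against 11.4% of all tested genes called higher), and 4 had an unadjusted p below 0.05, against 19.2% of all genes. DESeq2 and limma-voom also called 0, with 4 and 3 genes below 0.05. All 9 estimates were above 0, from 0.19 ± 0.19 for kif23 to 0.99 ± 0.36 for incenp, and ect2 was at 0.52 ± 0.47 with a 95% interval from -0.54 to 1.57. Both MT0 libraries exceeded both TG0 libraries for 6 of 9 genes, against 32% of all genes. Without TG0 replicate 1 the count was 3, with anln at 1.74 (FDR 0.020), kif20a at 1.79 (FDR 0.030), and prc1b at 1.85 (FDR 0.036). The comparisons of WT7, MT0, and TG0 with WT0 share the WT0 libraries, in which 5 of the 9 genes had 17 counts or fewer in each library.

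**Figure D3:**
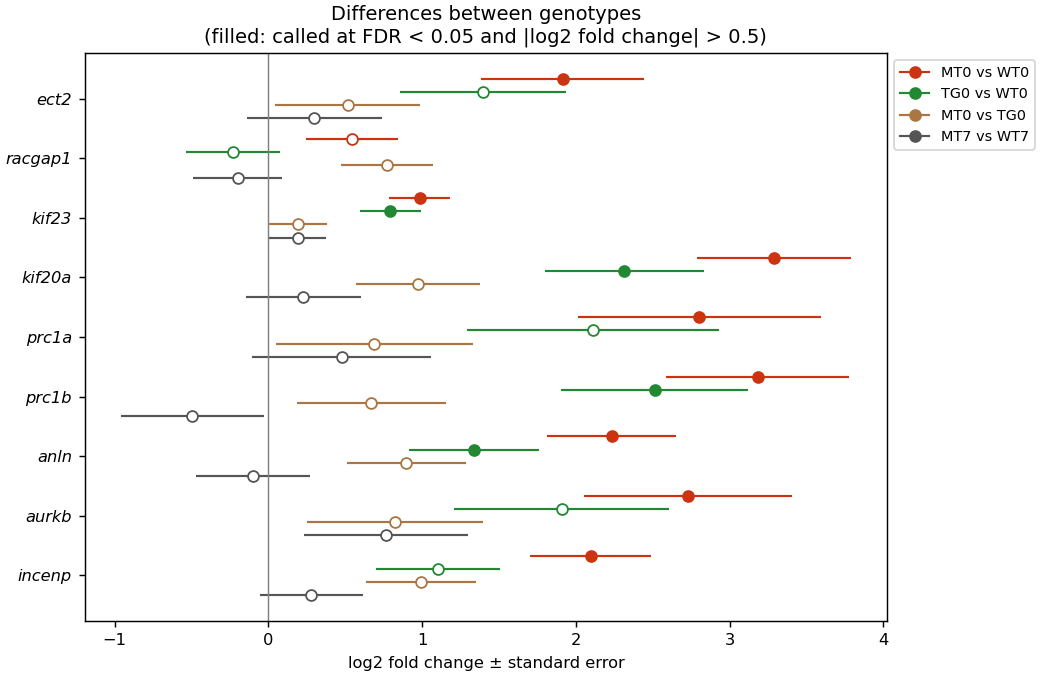
Log2 fold change between genotypes for each gene, with bars of ± 1 SE from the edgeR fit, and filled symbols for called genes. MT0 against WT0 is filled for 8 of 9 genes and TG0 against WT0 for 4, while MT0 against TG0 and MT7 against WT7 have no filled symbol.

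At 7 dpa, no gene was called between genotypes. MT7 against WT7 gave 0 of 9 calls in edgeR, DESeq2, and limma-voom with 0 genes at unadjusted p below 0.05 in each, against 4.6% of all genes called higher and 5.62% called lower in edgeR. Ect2 was at 0.30 ± 0.44 on the log2 scale with a 95% interval from -0.68 to 1.28, which holds differences of either sign. The extremes were aurkb at 0.77 ± 0.53 and prc1b at -0.49 ± 0.46, and for none of the 9 genes were the MT7 libraries both above or both below those of WT7, as they were for 29.7% and 31.3% of all genes. TG7 against WT7 gave 0 calls and 0 genes at unadjusted p below 0.05 in the 3 tools, against 0.847% of genes called higher and 0.289% called lower, with ect2 at -0.02 ± 0.44. MT7 against TG7 gave 0 calls in the 3 tools, with 0, 0, and 1 genes at unadjusted p below 0.05 in edgeR, DESeq2, and limma-voom, against 0.742% of genes called higher and 2.04% called lower. In that comparison prc1b was at -0.93 ± 0.46 (FDR 0.36), and it was among 4 of 9 genes with both MT7 libraries below both TG7 libraries, against 28% of all genes.

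Across the 9 genes, the median log2 fold change upon injury was 2.88 in WT, 1.79 in TG, and 0.84 in MT fish, while the median over all tested genes lay within 0.01 of 0 in each. For the uninjured comparisons the median of the 9 was 2.23 for MT0 against WT0, 1.40 for TG0 against WT0, and 0.77 for MT0 against TG0. At 7 dpa it was 0.33 for TG7 against WT7, 0.23 for MT7 against WT7, and -0.05 for MT7 against TG7. The summed level of the 9 genes was 26.9 and 28.0 CPM in WT0, 71.5 and 37.6 CPM in TG0, 80.6 and 92.4 CPM in MT0, 94.9 and 152.7 CPM in WT7, 163.0 and 154.7 CPM in TG7, and 157.5 and 102.9 CPM in MT7. The uninjured groups thus started from different levels and the injured groups overlapped.

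Markers of other cells also differed between the groups. The summed level of 4 fibroblast markers (col1a1a, col1a2, postnb, pdgfra) was 295.4 to 306.1 CPM in WT0, 611.9 to 635.5 in TG0, 1127 to 1469 in MT0, 3569 to 4085 in WT7, 4426 to 4462 in TG7, and 3748 to 3762 in MT7. That of 4 epicardial markers (tcf21, tbx18, wt1b, aldh1a2) was 135.1 to 194.1 CPM in WT0, 142.3 to 151.7 in TG0, 238.4 to 380.1 in MT0, 272.8 to 335.2 in WT7, 386.5 to 389.9 in TG7, and 481.4 to 554.7 in MT7. That of 6 macrophage and leukocyte markers was 75.4 to 149.8 CPM in WT0, 74.6 to 80.2 in TG0, 93.4 to 171.4 in MT0, 186.0 to 234.2 in WT7, 164.7 to 219.4 in TG7, and 242.9 to 248.2 in MT7. The 6 cardiomyocyte markers summed to 66501 to 73469 CPM in WT0, 74642 to 80681 in TG0, 42269 to 60297 in MT0, 50176 to 54199 in WT7, 48135 to 54250 in TG7, and 23970 to 34705 in MT7. Among the epicardial markers, aldh1a2 had the most counts in every library and so dominates their sum. The study used its protein, Raldh2, to mark endothelial as well as epicardial cells. Within each genotype, the summed fibroblast and leukocyte levels were higher, and the summed cardiomyocyte level was lower, in both injured libraries than in both uninjured ones. Single markers did not all follow these sums. Pdgfra had 608 and 404 counts in WT0 against 636 and 651 in WT7, not scaled for library size. Total counts were 17263832 and 14234818 in WT0 and 20589171 and 21652524 in WT7. By contrast, col1a1a had 1965 and 2018 counts in WT0 and 26024 and 31807 in WT7. Upon injury in WT, TG, and MT fish, edgeR called 3, 3, and 3 of 4 fibroblast markers higher. For epicardial markers it called 3, 4, and 2 of 4, and for leukocyte markers 1, 4, and 1 of 6. Of all genes, 13.2%, 6.69%, and 5.56% were called higher in these 3 comparisons. The fibroblast markers had median log2 fold changes of 3.38 in WT, 2.38 in TG, and 1.26 in MT fish. In the MT response minus the WT response, 3 of these 4 were called lower, against 1.51% of all genes. Set against the TG response, 3 of 4 were called lower in MT fish, against 1.06% of all genes. In the TG response minus the WT response it was also 3 of 4, against 2.01%. Upon injury the median log2 fold change of the 6 cardiomyocyte markers was -0.39 in WT, -0.48 in TG, and -0.71 in MT fish. EdgeR called 1 of 6 higher and 0 lower in WT7 against WT0 and in TG7 against TG0. Of all genes, 13.2% and 6.69% were called higher there. In MT7 against MT0 it called 0 higher and 2 lower, where 6.48% of all genes were called lower. In MT7 against WT7 it called 0 higher and 4 lower, where 5.62% of all genes were called lower. Vmhc rose, with 4114 and 5323 counts in WT0 against 25298 and 32329 in WT7. Neutrophil markers (4 genes) summed to 3.35 to 9.42 CPM in WT0, 2.93 to 4.73 in TG0, 14.6 to 51.6 in MT0, 17.3 to 18.4 in WT7, 11.0 to 25.5 in TG7, and 22.3 to 47.6 in MT7, so that their MT0 and MT7 libraries overlapped. Red blood cell markers (3 of 6 listed were in the files) summed to 901.7 to 1094 CPM in WT0, 1856 to 3215 in TG0, 1742 to 1832 in MT0, 2829 to 3202 in WT7, 6737 to 8787 in TG7, and 2733 to 4837 in MT7. All 3 were called higher in WT7 against WT0, in TG7 against TG0, and in TG0 against WT0, against 13.2%, 6.69%, and 11.1% of all genes. Lymphocyte markers (5 of 6 listed) summed to 22.3 to 41.6 CPM in WT0, 32.8 to 39.8 CPM in TG0, and 51.2 to 70.4 CPM over the other 4 groups. Endothelial markers (5 genes) summed to 599.8 to 855.6 CPM in WT0, and to 399.6 to 592.7 CPM over the other 5 groups. Of the 5, 3 were called lower in WT7 against WT0, against 11% of all genes. The endothelial marker cdh5 had 2491 counts in WT0 replicate 1 against 251 to 531 in the other 11 libraries. None of the markers was at 0 in both libraries of a group, and their part in the changes of the cytokinesis genes was not tested.

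**Figure D4:**
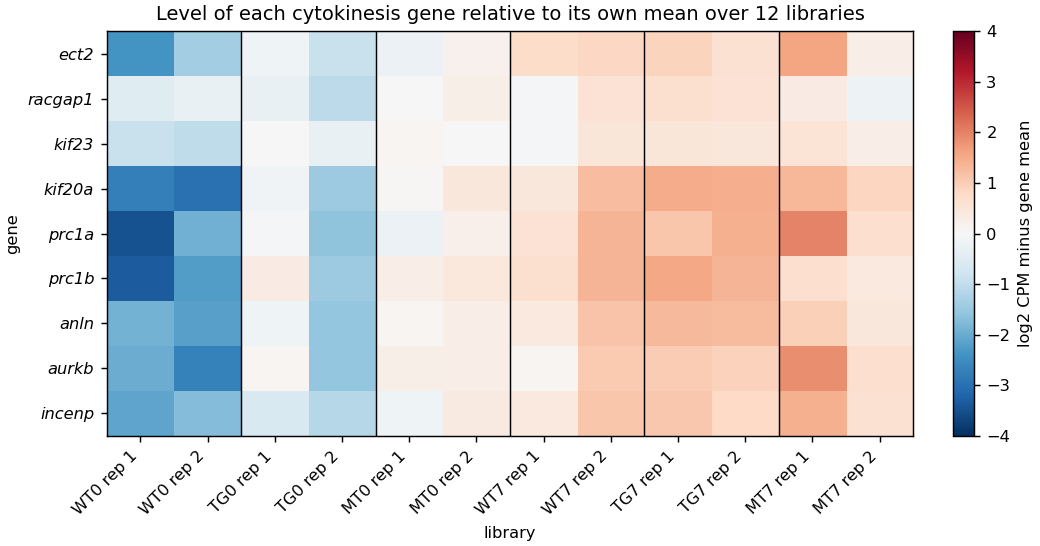
Log2 CPM of each gene (rows) in each library (columns), minus the gene's own mean over the 12 libraries, with blue for lower and red for higher. Lines separate the groups. The WT0 columns are the bluest, TG0 replicate 2 is bluer than TG0 replicate 1 for every gene, and MT7 replicate 1 is redder than MT7 replicate 2.

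In 5 of the 6 groups the 9 genes leaned toward the same replicate. All 9 were higher in replicate 1 than in replicate 2 of TG0, by a median ratio of 2.57, and of MT7, by a median ratio of 1.44. In WT7 all 9 were higher in replicate 2, as were 8 of 9 in MT0, and in TG7 8 of 9 were higher in replicate 1. In WT0 4 were higher in replicate 1 and 5 in replicate 2. The median ratio of replicate 1 to replicate 2 was 0.61 in WT7, 0.85 in MT0, and 1.04 in TG7. The lean was thus slight in MT0 and smallest in TG7. Over all tested genes the share higher in replicate 1 was 46.6% to 50.4% in the 6 groups. A reference list of 12 proliferation genes leaned the same way in 4 groups, with 12 of 12 higher in replicate 1 of TG0 and of MT7, 11 of 12 in replicate 1 of TG7, and 12 of 12 in replicate 2 of WT7. In MT0 the reference was split, with 6 genes higher in each replicate, and in WT0 11 of 12 were higher in replicate 2. In MT7 the ratio of replicate 1 to replicate 2 was 2.52 for ect2, 2.56 for prc1a, and 2.30 for aurkb, whereas it was 1.199 for kif23.

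Over the 12 libraries, Pearson's r of log2 CPM between pairs of the 9 genes ranged from 0.71 to 0.99 with a median of 0.94 (36 pairs). The libraries share their groups and scaling, so that these values describe likeness of pattern only. The pair kif20a and anln was at the top, and the pair racgap1 and kif23 at the bottom. Among 15416 genes compared with ect2, prc1a ranked first (r = 0.98). The 5 most similar genes outside the 9 were gins1, si:ch211-69g19.2, zgc:113340, mpp7, and ube2c, with r from 0.97 to 0.98. Gins1 encodes a subunit of the GINS complex of DNA replication forks, and ube2c a ubiquitin-conjugating enzyme that works with the anaphase-promoting complex. Incenp ranked 13th, kif20a 107th, prc1b 151st, aurkb 204th, anln 223rd, kif23 269th, and racgap1 1916th (r = 0.72).

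Other genes of the division machinery were counted as lists. A list of 18 genes, called central spindle partners here, held central spindle, chromosomal passenger, and midbody genes. It also held genes that act elsewhere in mitosis, such as kif11, tacc3, aurka, and bora. Of the 18 genes, 13 were tested. Of these, 10 were called higher in WT7, 9 in TG7, and 6 in MT7 against the uninjured group of the same genotype, with medians of 2.77, 1.79, and 1.27, where 13.2%, 6.69%, and 5.56% of all tested genes were called higher. In the MT response minus the WT response, edgeR and limma-voom called 0 of the 13 and DESeq2 called 3 lower. In edgeR 1.51% of all genes were called lower. At unadjusted p below 0.05 in edgeR, 8 of the 13 were lower, against 11.5% of all genes. Set against the TG response, 0 were called in the 3 tools, against 1.06% of all genes called lower in edgeR. In MT7 against WT7, 12 of 13 were above 0, with a median of 0.64 against 0.005 over all tested genes. Of the 13, 0 were called in edgeR, against 4.6% of all genes called higher. Kif11, the kinesin that pushes spindle poles apart, rose by 3.87 ± 0.48 in WT fish, from 0.339 and 0.895 CPM to 7.72 and 10.2 CPM. Kif14, a midbody kinesin, rose by 3.61 ± 0.55, kif20ba by 3.17 ± 0.55, and birc5a, the survivin subunit of the chromosomal passenger complex, by 2.56 ± 0.42. Of the 13, 9 were called above WT0 in MT0 and 4 in TG0, and 3 were called above TG0 in MT0, against 13.6%, 11.1%, and 11.4% of all genes. In limma-voom the counts against WT0 were 5 in MT0 and 0 in TG0. The 9 in TG7 became 0 without TG0 replicate 2 or TG7 replicate 1, 1 without TG7 replicate 2, and 2 without TG0 replicate 1. The 9 in MT0 became 5 without WT0 replicate 1, and the 4 in TG0 became 1 without either WT0 library and 0 without TG0 replicate 1. The 3 above TG0 became 0 without TG0 replicate 2 or MT0 replicate 2 and 1 without MT0 replicate 1. The 6 called in MT7 were kif11, kif14, birc5a, tacc3, aurka, and bora, of which the last 3 are named after their values were seen. For aurka and bora MT7 replicate 1 stood apart, at 10.5 against 2.05 CPM in replicate 2 for aurka and at 5.55 against 0.925 CPM for bora. None of the 6 was called without MT7 replicate 1 (FDR 0.12 to 0.51, edgeR), without MT0 replicate 1, or without MT0 replicate 2, and all 6 but birc5a were called without MT7 replicate 2.

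The RhoA and contractile ring genes that cells use also outside division were counted in the same way. Of 26 listed, 24 were tested, and in WT7 against WT0 1 was called higher and 4 lower, with a median of -0.16, against 13.2% of all tested genes called higher and 11% called lower. The 4 were sept12, a septin, at -0.79 ± 0.19, diaph2, a formin, at -0.75 ± 0.18, and the RhoA-dependent kinases rock1 at -0.62 ± 0.12 and rock2b at -0.60 ± 0.18. Rock1 was measured at 102.3 and 88.1 CPM in WT0 and at 59.2 and 65.0 CPM in WT7, without overlap. In TG7 against TG0, 2 were called higher and 0 lower, against 6.69% and 2.68% of all genes. In MT7 against MT0, 0 were called higher by edgeR and limma-voom and 1 by DESeq2 (2 at unadjusted p below 0.05 in edgeR), and 5 were called lower, against 6.48% of all genes. In MT0, 9 were called above and 2 below WT0 (median 0.52) and 9 above TG0 (median 0.61), against 13.6%, 11.6%, and 11.4% of all genes. In TG0 against WT0, 6 were called lower, against 11.3% of all genes. The difference between this list and the 9 genes was not tested. The 4 lower in WT7 became 0 without WT0 replicate 1 or WT7 replicate 1 and 1 without WT7 replicate 2, and the 5 lower in MT7 became 1 without MT0 replicate 1 or MT7 replicate 1 and 9 without MT7 replicate 2. The 6 lower in TG0 became 3 without WT0 replicate 1 or TG0 replicate 2 and 2 without TG0 replicate 1.

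The ESCRT genes, whose products cut the last bridge between daughter cells and also serve membrane traffic, gave 14 tested of 20 listed. In the 3 injury comparisons edgeR, DESeq2, and limma-voom each called 0 of 14, with 5 in WT, 3 in TG, and 1 in MT fish at unadjusted p below 0.05 in each tool. In edgeR the 5 were higher, against 20.5% of all tested genes, and the 3 and the 1 were lower, against 12.1% and 15.8%. Their medians were 0.23, -0.10, and -0.08. In TG0 against WT0, 3 of 14 were called higher, against 11.1% of all genes, and 1 without WT0 replicate 1 or TG0 replicate 1. Without WT0 replicate 2, 3 were called higher in WT7 against WT0. All 12 genes of the proliferation reference were tested, and 8 were called higher in WT7, 7 in TG7, and 3 in MT7, with medians of 1.87, 1.69, and 0.72, against 13.2%, 6.69%, and 5.56% of all genes. In limma-voom the counts were 4, 6, and 1. In the MT response minus the WT response, edgeR called 1 of the 12 lower, DESeq2 2, and limma-voom 0. In edgeR 1.51% of all genes were called lower. Set against the TG response, 0 of the 12 were called in the 3 tools, against 1.06% of all genes called lower in edgeR. In MT7 against WT7, 11 of 12 were above 0, with a median of 0.37 against 0.005 over all tested genes. There edgeR called 0 and DESeq2 1, against 4.6% of all genes called higher in edgeR. Top2a, the topoisomerase of chromosome segregation, rose by 3.33 ± 0.43 in WT fish, cdk1, the mitotic kinase, by 3.30 ± 0.57, ccna2, a cyclin, by 2.71 ± 0.62, and mki67 by 1.80 ± 0.38. In MT0, 6 of the 12 were called above WT0 (3 in limma-voom) and 3 above TG0, against 13.6% and 11.4% of all genes. In TG0 against WT0, 3 of the 12 were called higher and 1 lower, against 11.1% and 11.3% of all genes. Limma-voom called 0 higher and 1 lower there. The 8 in WT7 became 3 without WT0 replicate 1 and 2 without WT7 replicate 2, and the 7 in TG7 became 0 without TG0 replicate 2 or TG7 replicate 1 and 1 without TG7 replicate 2. The 3 in MT7 became 0 without MT7 replicate 1 and 1 without either MT0 library. The 6 above WT0 became 1 without WT0 replicate 1, 3 without WT0 replicate 2 or MT0 replicate 1, and 2 without MT0 replicate 2, and the 3 above TG0 became 0 without TG0 replicate 2 and 1 without MT0 replicate 2.

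**Figure D5:**
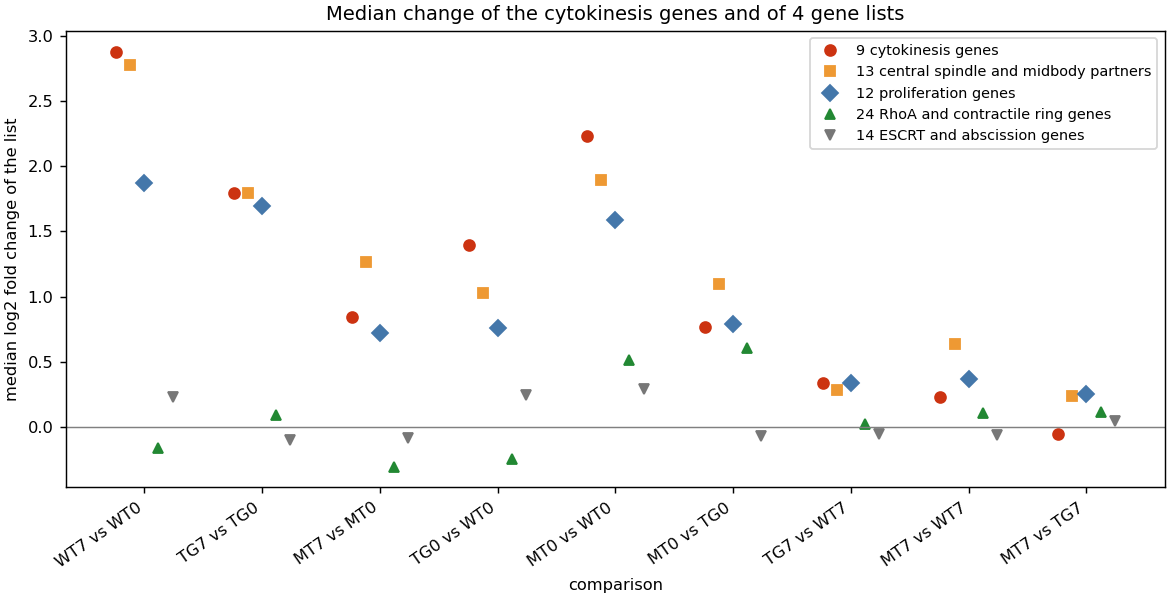
Median log2 fold change of the 9 cytokinesis genes and of 4 gene lists in the 9 comparisons between groups. The cytokinesis genes, their central spindle partners, and the proliferation genes lie at 1.69 to 2.88 in the WT and TG injury comparisons, while the RhoA and ESCRT lists stay between -0.30 and 0.61 in all 9 comparisons.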

How the data were processed

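The authors extracted RNA from pooled apices, prepared TruSeq v2 libraries, sequenced single-end reads, aligned them to GRCz10 with STAR, counted reads per gene with featureCounts, and deposited the counts without normalization (strand setting not given in the sources used here). The files name genes by symbol, without coordinates or lengths, and no sequence was used. Levels were thus not compared between genes, apart from the ratio of prc1b to prc1a counts and the sums of CPM. Neither was corrected for gene length.

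From the counts, edgeR 4.0.16 in R 4.3.3 was run with TMM scaling, a filter by group (minimum count 10, minimum total count 15), and a quasi-likelihood model of 6 group means over 12 libraries. P-values were adjusted by Benjamini-Hochberg over the 19014 genes tested. The script was tested on simulated data. Log2 CPM used a prior count of 2, and likeness to ect2 was taken among genes whose average log2 CPM was 0 or more. Alternatives were DESeq2 1.42.0, RLE size factors, no filter, the replicate number as a block, only the compared libraries, limma-voom (limma 3.58.1), and each library left out. The study's own tool was DESeq2, and its stated FDR limits differ between methods and legends, so 0.05 was used.

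The members and lists were chosen with earlier results of these data known. Named are all 9 genes, at most 4 called genes per list with the smallest p in WT7 vs WT0, and the 5 genes most like ect2; list genes outside this rule are said to have been named after their values were seen. The replicates are separate pools, so the spread between single fish is not seen.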

Additional observations from a re-analysis of the deposited data

Results flagged for a closer look

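The injury response of kif20a and of prc1b differed between MT and WT fish by the interaction test, at -3.06 ± 0.63 and -3.68 ± 0.76 on the log2 scale (both FDR 0.043, quasi-likelihood F-test of edgeR, adjusted by Benjamini-Hochberg). Kif20a was at 0.742 ± 0.101 CPM in WT0 and 7.31 ± 1.47 CPM in MT0, and at 11.2 ± 4.13 CPM in WT7 and 13.1 ± 3.19 CPM in MT7 (SD, n = 2). Prc1b was at 0.905 ± 0.513 CPM in WT0 and 8.16 ± 0.585 CPM in MT0, and at 13.2 ± 4.49 CPM in WT7 and 9.36 ± 1.35 CPM in MT7. Over the alternatives the FDR ranged from 0.00068 to 0.17 for kif20a and from 0.00024 to 0.19 for prc1b, and with a library left out the estimates ran from -3.39 to -2.64 and from -4.41 to -3.19.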

How the results depend on the processing

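With all libraries kept, the count of called genes, of 9, moved by over 1.5 times in 4 comparisons. In TG7 vs TG0 (5) it was 8 with only the compared libraries. In TG0 vs WT0 (4) it was 7 in DESeq2, 0 in limma-voom, and 0 with only the compared libraries. In MT0 vs WT0 (8) it was 5 in limma-voom and 5 with only the compared libraries. In (MT7-MT0)-(WT7-WT0) (2) it was 4 in DESeq2, 0 in limma-voom, and 1 with only the compared libraries. With each library left out in turn it ran from 5 to 8 in WT7 vs WT0, 0 to 5 in TG7 vs TG0, 0 to 2 in MT7 vs MT0, 0 to 5 in TG0 vs WT0, 5 to 8 in MT0 vs WT0, 0 to 3 in MT0 vs TG0, and 0 to 3 in (MT7-MT0)-(WT7-WT0). A left-out library leaves its group with 1, which is then assumed to vary like the other groups. The cause of these changes was not tested. RLE size factors and the absence of a filter moved no count by over 1.5 times. Smaller moves included WT7 vs WT0 (8), with 6 in limma-voom, and TG7 vs TG0, with 7 in DESeq2. The lists were also counted with each library left out, which was chosen after seeing the data. The central spindle partners called higher then ran from 7 to 9 of 13 in WT7 vs WT0, 0 to 2 in TG7 vs TG0, and 0 to 6 in MT7 vs MT0, and the proliferation genes from 2 to 8, 0 to 5, and 0 to 4 of 12.

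The r between deviations of same-numbered replicates exceeded 0.1 in 2 of 15 pairs of groups. It ran from -0.28 for MT0 and MT7 to 0.32 for MT0 and WT7. A batch shared by libraries of unlike replicate number would give a negative r, which this count leaves out. Whether libraries shared a batch was not tested. With the replicate block the count in (MT7-MT0)-(WT7-WT0) was 0, and no other count moved by over 1.5 times.

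Of the single-gene fold changes, 614 values under other settings stayed on their side of the thresholds, 23 lost a call, 11 gained one, and 0 changed sign. Values uncalled in both fits count as having stayed, here and with a library left out. The tallies are thus not shares of calls kept. With a library left out, 448 stayed, 54 lost a call, 6 gained one, and 32 changed sign. Where a sign changed, the log2 range with a library left out was as follows. In MT7 vs WT7 it was -0.50 to 0.84 for ect2, -0.48 to 0.17 for racgap1, -0.040 to 0.48 for kif23, -0.087 to 0.66 for kif20a, -0.34 to 1.02 for prc1a, -0.41 to 0.33 for anln, and -0.18 to 0.66 for incenp. In MT7 vs TG7 it was -0.49 to 0.84 for ect2, -0.19 to 0.079 for kif23, -0.62 to 0.73 for prc1a, -0.29 to 0.91 for aurkb, and -0.35 to 0.49 for incenp. In TG7 vs WT7 it was -0.17 to 0.13 for ect2, -0.058 to 0.73 for prc1a, -0.062 to 0.93 for aurkb, and -0.14 to 0.55 for incenp. In (MT7-MT0)-(TG7-TG0) it was -1.03 to 0.31 for ect2, -1.55 to 0.13 for prc1a, and -1.47 to 0.22 for aurkb. For racgap1 it was -0.35 to 0.18 in MT7 vs MT0 and -0.65 to 0.12 in TG0 vs WT0. The WT0 libraries hold 2 to 17 counts for ect2, kif20a, prc1a, prc1b, and aurkb, which limits the precision of every fold against WT0.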
